A study of Mus musculus with 8 samples.

Results

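Transcripts of 10 CC chemokine genes were followed on 8 one-colour microarrays in cultured smooth muscle cells, taken as primary cells from the aorta of C57BL/6 mice, where they give the vessel its tone. The genes were Ccl2, Ccl5, Ccl7, Ccl8, Ccl9, Ccl11, Ccl17, Ccl20, Ccl25 and Ccl27, taken by the gene name that the array design gives each probe, and they made up 10 of the 28786 gene and transcript names on the arrays. They were read by 14 probes of 41174. In the AngII+CsA group, 4 cultures received 200 ng/ml cyclosporin A together with 1 µM angiotensin II, and in the AngII group 4 cultures received 1 µM angiotensin II alone. Cyclosporin A binds cyclophilin and blocks the calcium-dependent phosphatase calcineurin, and angiotensin II is a peptide hormone that contracts arteries. All cultures grew in 20% heat-inactivated serum, the labels call them independent, and cells without angiotensin II were not analysed here. The comparison therefore asks whether cyclosporin A shifts chemokine transcripts in cells that have angiotensin II, and it does not show the response to angiotensin II.

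CC chemokines are small secreted proteins with a pair of neighbouring cysteines, and they attract leukocytes through G-protein-coupled receptors. In the artery wall, smooth muscle cells exposed to angiotensin II or inflammatory cytokines are known to secrete Ccl2, which draws monocytes into the vessel. The inflammatory members are induced mainly through NF-kB and AP-1, while calcineurin acts on NFAT, a factor that binds the core GGAAA. Other members, such as Ccl17, Ccl25 and Ccl27, are better known from thymus, skin and gut.

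The 60-base probes whose values carry the results are identified here by their first 30 bases, written 5′ to 3′ in lower case as the array files hold them, with probe positions in build mm7. They are shown because a pair of probes reads the same gene, Ccl7, and gave different patterns across the cultures. The Ccl2 probe lies at chr11:82118723-82118782 and the Ccl20 probe at chr1:83327742-83327801. The probes of Ccl7 lie at chr11:82128577-82128636 and chr11:82128729-82128788, 92 bases apart, all on the plus strand. Whether they fall in coding exons or in the 3′ untranslated region was not analysed here.
Ccl2, A_51_P286737: tgtaggagtgaccagtgtgacagtgaacta
Ccl7, A_52_P208763: gcatggaagtctgcgctgaagcccatcaga
Ccl7, A_51_P436652: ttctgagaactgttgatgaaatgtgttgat
Ccl20, A_51_P408595: tagatctgaattttctatgtttagctattt

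Every level below is the log2 signal of a probe relative to the 75th percentile of its array, and every difference is AngII+CsA minus AngII on that log2 scale. A probe was tested if it was above local background on at least 4 of the 8 arrays, which 19529 probes were. Each replicate number had its own slide and scan, 1 array of each group on it, and the numbers separated the arrays more than the treatment did. On the first principal component, with 52.8% of the variance, both arrays of replicate 1 lay at 73.4 (AngII+CsA) and 95.1 (AngII), against -58.0 to 3.3 for the other 6. Each test is therefore given on the groups alone and with the replicate number as a block. Between 42.8% and 51.7% of the 43379 spots of an array were above background, and precision is limited by having 4 cultures a group. Rcan1, a feedback regulator of calcineurin that NFAT induces, checked the treatment: it averaged 2.75 ± 0.69 in AngII+CsA and 5.01 ± 0.61 in AngII (SD, n = 4 each), and was lower in 4 of 4 pairs (limma, adjusted p = 0.0215 with the block and 0.9999 without). A second Rcan1 probe, A_51_P182116, differed by -1.50 and was not called (adjusted p = 0.25 by limma with the block). Of 10 smooth muscle marker genes 9 passed the filter, Acta2 and Tagln among them, and Myocd did not. One of them, the contractile protein gene Cnn1, differed by -1.71, with an adjusted p of 0.48 by limma with the block.

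Ccl2, the main attractant of CCR2-bearing monocytes, was above background on all 8 arrays. Replicates 1 to 4 read 5.41, 5.01, 3.98 and 4.40 in AngII+CsA and 6.12, 5.65, 4.00 and 5.00 in AngII. The groups overlapped, and within replicate numbers the cultures with cyclosporin A lay 0.60 to 0.71 lower in replicates 1, 2 and 4, while the pair of replicate 3 was almost level at -0.02. The mean was 4.70 ± 0.63 in AngII+CsA and 5.19 ± 0.92 in AngII (SD, n = 4 each), a difference of -0.49, or a 1.41-fold lower signal. With the block the 95% interval ran from -0.85 to -0.14, with an unadjusted p of 0.0138 and an adjusted p of 0.932 by limma. The test on the groups alone gave an adjusted p of 0.9999, so neither fit called the difference.

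Ccl2 is printed 10 times on each array, so its reading error can be seen apart from the spread between cultures. The SD over the 10 spots of an array lay between 0.054 and 0.121, and no spot was marked as an outlier. Taken spot by spot, the difference between groups ran from -0.53 to -0.43. The means of the replicate numbers differed by far more, with the AngII+CsA and AngII arrays of a number averaging 5.77, 5.33, 3.99 and 4.70 for replicates 1 to 4.

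**Figure D1:**
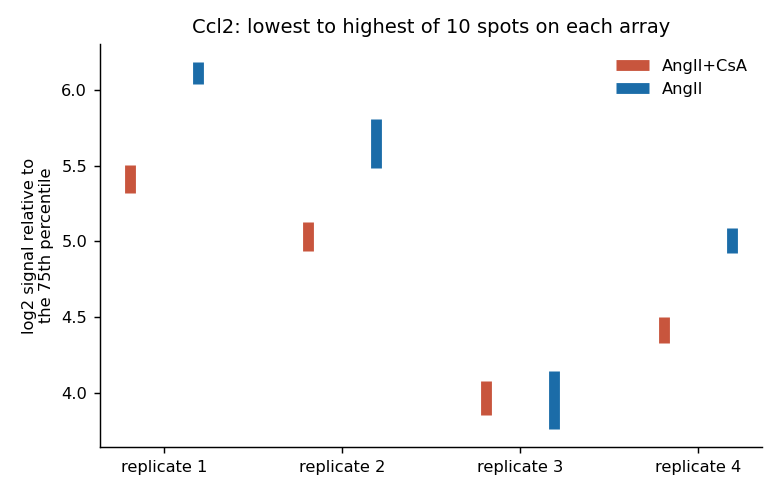
Lowest to highest log2 signal, relative to the 75th percentile of the array, over the 10 Ccl2 spots of each array, with AngII+CsA (red) left of AngII (blue) within each replicate number. The bars of the 2 groups lie apart in replicates 1, 2 and 4 and overlap in replicate 3.

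Ccl7, a ligand of CCR1, CCR2 and CCR3 encoded next to Ccl2, was read at 2 places. On probe A_52_P208763 replicates 1 to 4 read 8.84, 7.72, 8.0 and 6.94 in AngII+CsA and 9.21, 8.42, 8.40 and 7.86 in AngII. All 4 cultures with cyclosporin A were below their partner, by 0.37 to 0.92, although the groups overlapped. The mean was 7.87 ± 0.79 in AngII+CsA and 8.47 ± 0.56 in AngII (SD, n = 4 each), a difference of -0.60, or 1.52-fold lower. With the block the standard error was 0.13, the 95% interval -0.92 to -0.28 and the unadjusted p 0.0035, which ranked 61 among the 19529 probes. The adjusted p was 0.932 by limma with the block, 0.487 with the number as a random block and 0.9999 on the groups alone.

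The other Ccl7 probe, A_51_P436652, was above background on 3 arrays of AngII+CsA and 4 of AngII. Its replicates 1 to 4 read 0.21, -2.77, -3.53 and -2.85 in AngII+CsA and -0.07, -1.99, -2.67 and -1.90 in AngII. Replicate 1 stood far above the rest in both groups and was the one pair without a lower value in AngII+CsA. The mean was -2.24 ± 1.67 in AngII+CsA and -1.66 ± 1.11 in AngII (SD, n = 4 each), a difference of -0.58 with a blocked 95% interval of -1.11 to -0.04 and an adjusted p of 0.932 by limma. The 2 probes thus gave nearly the same mean difference, but they disagreed on replicate 1, where it was -0.37 on A_52_P208763 and 0.29 on A_51_P436652. Without replicate 1 the blocked differences were -0.68 and -0.86. Under normexp background correction the difference of A_51_P436652 was -0.16.

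Ccl8, which also attracts monocytes and lies in the same cluster, was above background on 1 array of AngII+CsA and 2 of AngII, and was not tested. Replicates 1 to 4 read -0.53, -3.85, -4.90 and -4.23 in AngII+CsA and -0.98, -3.26, -5.02 and -3.79 in AngII. Its pattern followed the replicate number: the arrays of replicate 1 were high in both groups, and the pairs ran in both directions, from -0.59 to 0.45. The lowest signal that counted as above background ranged over the arrays from -4.03 to -3.03, and the Ccl8 readings of replicates 3 and 4 lay under that of their own array in both groups. Ccl11, the eosinophil attractant eotaxin, was above background on 0 of 8 arrays, reading -6.12 to -3.92 in AngII+CsA and -5.93 to -4.62 in AngII.

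Ccl20, the ligand of CCR6 on dendritic cells and Th17 cells, was above background on all 8 arrays. Replicates 1 to 4 read 2.31, 2.32, 1.26 and 0.64 in AngII+CsA and 3.12, 3.03, 1.12 and 1.12 in AngII. Replicates 1 and 2 were high in both groups, and the groups overlapped. AngII+CsA was lower by 0.48 to 0.82 in replicates 1, 2 and 4, and the replicate 3 pair differed by 0.14 the other way. The mean was 1.63 ± 0.83 in AngII+CsA and 2.10 ± 1.13 in AngII (SD, n = 4 each), a difference of -0.47, or 1.38-fold lower, with a blocked 95% interval of -0.89 to -0.04. The adjusted p was 0.932 with the block and 0.9999 on the groups alone by limma.

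The promoter of Ccl20 is shown because it is the one member above background on all 8 arrays and lower in 3 pairs whose start region is in the RefSeq table used (assembly GRCm38.p6), and that of Ccl8 is shown beside it as a gene of the Ccl2 cluster that was above background on 3 arrays. Each window holds 250 bases before and 50 after the annotated start, on the plus strand, at chr1:83116516-83116815 for Ccl20 and chr11:82114935-82115234 for Ccl8. Capitals mark matches to GGAAA on either strand and, in Ccl20, to the NF-kB consensus.
Ccl20: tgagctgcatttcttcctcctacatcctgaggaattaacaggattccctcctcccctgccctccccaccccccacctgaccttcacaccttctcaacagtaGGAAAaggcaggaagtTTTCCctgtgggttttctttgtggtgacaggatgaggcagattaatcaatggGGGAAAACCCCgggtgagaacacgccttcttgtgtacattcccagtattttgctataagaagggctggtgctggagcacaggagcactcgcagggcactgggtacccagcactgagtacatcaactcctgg
Ccl8: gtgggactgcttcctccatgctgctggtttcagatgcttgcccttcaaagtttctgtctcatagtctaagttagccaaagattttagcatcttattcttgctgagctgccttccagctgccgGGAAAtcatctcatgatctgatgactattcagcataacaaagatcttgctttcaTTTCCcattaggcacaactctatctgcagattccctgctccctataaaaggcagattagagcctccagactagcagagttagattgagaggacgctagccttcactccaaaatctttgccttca

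The Ccl20 window held 3 matches to GGAAA, beginning at -149, -133 and -80 from the start, and the NF-kB consensus between -81 and -71, which overlaps the GGAAA at -80. The Ccl8 window held 2 matches to GGAAA, at -128 and -74, and 0 to the NF-kB consensus. Both had TATAA, at -28 in Ccl20 and at -32 in Ccl8, and 0 matches to TGANTCA, the AP-1 site. All motifs were searched on both strands. Such matches are common: of the 32851 promoter windows in the table, 61.3% held GGAAA, 26.8% the NF-kB consensus, 24.9% TATAA and 7.81% TGANTCA. The table held windows for 6 of the 10 genes, and those of Ccl9 and of 1 of 3 starts of Ccl27 also matched the NF-kB consensus. A match describes the letters only.

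Ccl5, the T-cell and monocyte attractant RANTES, had a probe, A_52_P638459, above background on all 8 arrays. Replicates 1 to 4 read -1.51, -1.83, -2.51 and -1.71 in AngII+CsA and -1.07, -1.98, -2.34 and -1.80 in AngII. The groups overlapped and the pairs split evenly, with replicates 1 and 3 lower in AngII+CsA and replicates 2 and 4 higher. The difference of -0.09 had a blocked 95% interval of -0.42 to 0.23 (limma, adjusted p above 0.9 in both fits). It was 0.0048 when arrays were scaled on their median. The second Ccl5 probe, A_51_P485312, was above background on 0 of 8 arrays, reading -5.35 to -4.13 in AngII+CsA and -5.75 to -3.73 in AngII.

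Ccl9, a CCR1 ligand found in rodents, was above background on 1 array of AngII+CsA and 2 of AngII. Replicates 1 to 4 read -3.90, -3.06, -4.62 and -3.62 in AngII+CsA and -3.16, -2.60, -3.99 and -3.44 in AngII. All 4 pairs were lower in AngII+CsA, by 0.18 to 0.75, but the groups overlapped. Most readings lay near the background limit and the probe was not tested across the table. Without the filter, which adds the dim probes, the median difference of all probes was -0.09, against -0.01 for tested probes. An exact two-sided sign-flip test over the 4 pairs gave p = 0.125 for Ccl9, the smallest that 4 pairs allow.

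Of the thymus, gut and skin chemokines, Ccl17 and Ccl27 had pairs on both sides of 0, and Ccl25 was too dim to test. Ccl17, a CCR4 ligand, read -3.13, -2.79, -2.36 and -2.55 in AngII+CsA and -3.16, -2.14, -2.96 and -2.15 in AngII for replicates 1 to 4, above background on 4 arrays of AngII+CsA and 3 of AngII. Its pairs ran from -0.64 to 0.60, with a mean difference of -0.10 and a blocked 95% interval of -0.61 to 0.41. Ccl27, the skin chemokine that binds CCR10 and now carries the symbol Ccl27a, read -1.57, -1.59, -0.54 and -1.37 in AngII+CsA and -1.25, -1.61, -1.03 and -1.37 in AngII. Replicate 3 was the highest in both groups, and the mean difference was 0.05 with a blocked interval of -0.32 to 0.41, turning to -0.04 under normexp background correction. Close copies of Ccl27a exist in the mouse, and whether the probe separates them was not tested. Ccl25, which guides T cells to thymus and small intestine, has 3 probes, above background on 1 array of each group for A_51_P161265 and on 0 arrays for A_52_P326713 and A_52_P730698. They read -6.09 to -3.18, -6.18 to -4.99 and -6.15 to -5.39 in AngII+CsA, and -5.25 to -2.96, -6.01 to -3.78 and -5.96 to -5.27 in AngII, in that order of probes. All 3 were lower in AngII+CsA in 4 of 4 pairs, with mean differences of -0.37, -0.40 and -0.13. Most of these readings were not above background, and without the filter the median difference of all probes was also below 0, at -0.09. A_52_P730698 lies 20.9 kb from the nearest other Ccl25 probe.

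**Figure D2:**
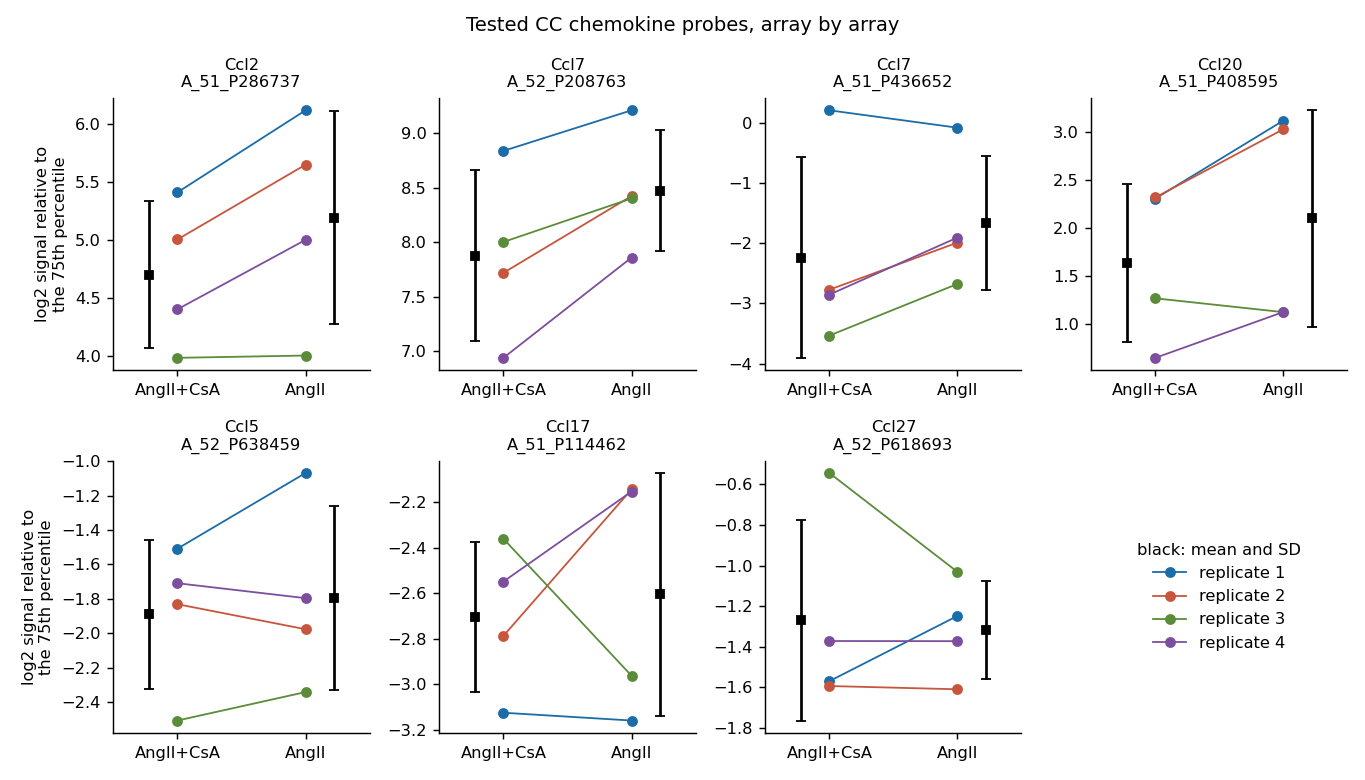
Log2 signal relative to the 75th percentile of the array for the 7 tested probes, AngII+CsA left of AngII, with a line joining the 2 arrays of a replicate number and black squares with bars for the mean and SD of 4 cultures. The groups overlap in every panel, and for Ccl2, Ccl7 and Ccl20 the lines lie far apart.

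Over all 14 probes, 7 passed the filter on dim signals and stood for 6 genes, while Ccl8, Ccl9, Ccl11 and Ccl25 did not pass. Of the 7 tested probes, 0 were called by limma without the block, 0 with it and 0 with the number as a random block, against 0.0%, 0.0102% and 0.041% of all tested probes. At an unadjusted p under 0.05 the count was 0 on the groups alone, where 0.297% of all probes passed. With the block it was 4, namely Ccl2, Ccl20 and both Ccl7 probes, all lower in AngII+CsA, where 3.42% of all probes were lower at that level. With the number as a random block it was 2, where 4.57% were lower. The difference was negative for 6 of the 7 probes, against 53.7% of all tested probes, and 2 of the 7 were lower in 4 of 4 pairs, against 9.08%. The groups overlapped for all 7 tested chemokine probes, while all AngII+CsA values lay below all AngII values for 0.307% of tested probes. Their median difference was -0.47 and that of all tested probes -0.01. In the exact permutation test of 4 against 4 arrays the 7 probes had p-values of 0.286 to 0.857, where the smallest possible is 0.0286. That test takes no account of the replicate numbers. The exact sign-flip test over the 4 pairs gave p = 0.125 for Ccl2 and A_52_P208763, the smallest that 4 pairs allow. For the rest of the 7 probes it gave 0.25 to 0.75.

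**Figure D3:**
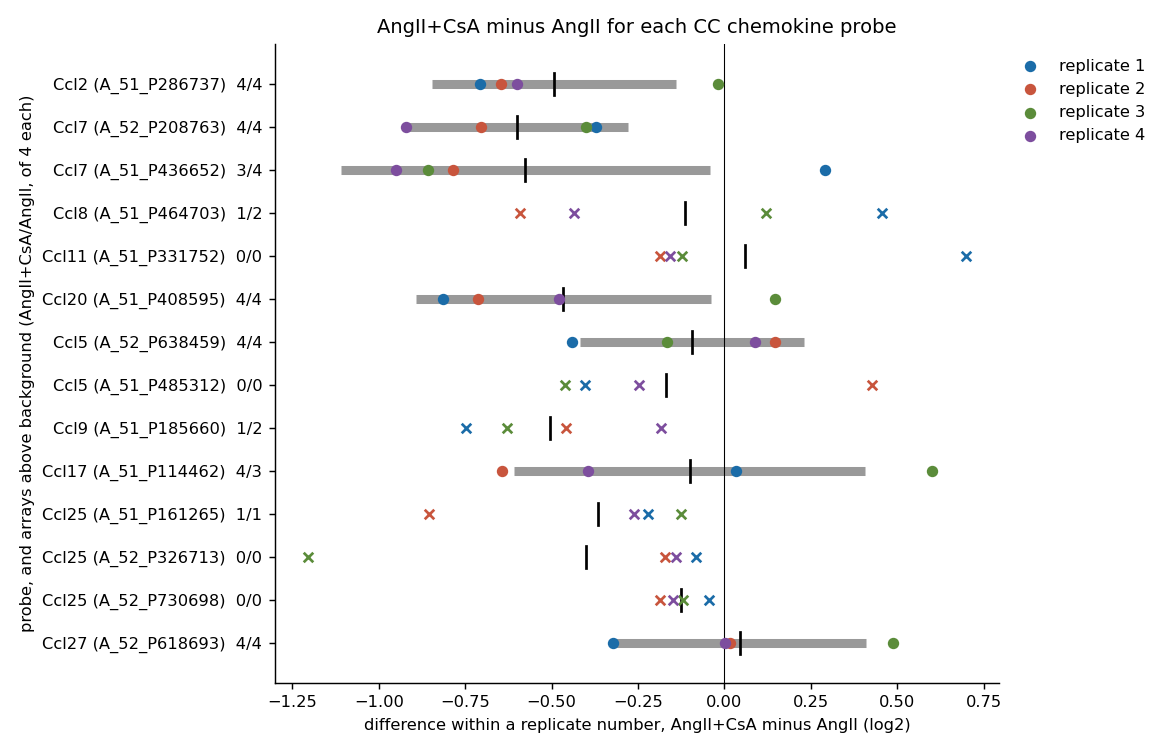
AngII+CsA minus AngII (log2) within each replicate number for all 14 probes, with the mean as a black tick and, for the 7 tested probes (dots), the blocked 95% interval in grey, and crosses for probes that were not tested. The intervals of Ccl2, both Ccl7 probes and Ccl20 lie below 0, those of Ccl5, Ccl17 and Ccl27 span it.

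For each of the 7 tested probes the spread between replicate numbers was wider than the cyclosporin difference. The means of the 4 replicate numbers spanned 1.77 for Ccl2, a 3.42-fold range and 3.6 times the cyclosporin difference. They spanned 1.83 for Ccl20, 1.63 for Ccl7 on A_52_P208763 and 3.17 on A_51_P436652, the last a 9.02-fold range that was larger than that of 99.0% of tested probes. The median range over all tested probes was 0.926 and their median absolute difference 0.108, so a range wider than the difference was not particular to the chemokines. A range is the highest minus the lowest of 4 means, while the difference compares the group means. Ccl2 and Ccl20 were highest in replicate 1 and then replicate 2, while the lowest number was replicate 3 for Ccl2 and replicate 4 for Ccl20 and for A_52_P208763. A moderated F test of the replicate numbers passed for 5 of the 7 probes, against 66.9% of all tested probes. The adjusted p was 0.0042 for Ccl2, 0.0047 for A_52_P208763, 0.0028 for A_51_P436652, 0.00385 for Ccl20 and 0.0135 for Ccl5 by limma, and Ccl17 and Ccl27 did not pass at 0.152 and 0.051. Replicate number and slide cannot be told apart.

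**Figure D4:**
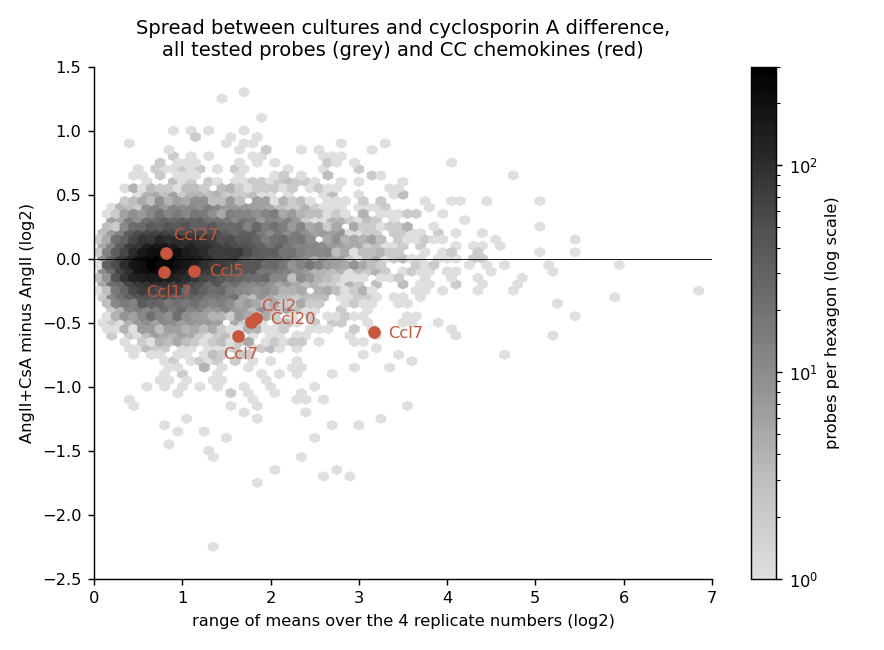
Range of the 4 replicate-number means (log2, horizontal) against AngII+CsA minus AngII (log2, vertical) for the 19529 tested probes, as hexagons shaded by the number of probes on a log scale, with the 7 tested CC chemokine probes in red. Ccl2, both Ccl7 probes and Ccl20 lie to the right of the median range of 0.926 and below 0.

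Markers of the cells a culture can hold moved with the replicate numbers as well. The summed linear signal of 8 adventitial fibroblast markers, of which Dcn alone made up 86.0% to 93.0%, was 1149, 689, 439 and 344 in replicates 1 to 4 of AngII+CsA and 1195, 784, 408 and 301 in AngII. That of 10 smooth muscle markers, of which Tagln made up 42.9% to 65.8% and Acta2 17.0% to 34.1%, was 227, 732, 1242 and 1124 in AngII+CsA and 298, 719, 1395 and 1400 in AngII. Replicate 1, with the highest Ccl2 and Ccl7, thus had the highest fibroblast sum, which is mainly a reading of Dcn, and the lowest smooth muscle sum in both groups, and the part of this in the chemokine levels was not tested. In bulk RNA, fewer cells of a type and less RNA per cell cannot be told apart.

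Markers of leukocytes and endothelium, which can also make CC chemokines, were above background for part of each list. Of 11 macrophage marker genes 3 were tested, Cd14, Cd68 and Csf1r, while Adgre1, Aif1, Fcgr1, Itgam, Lyz1 and Mrc1 were above background on 0 arrays. The summed signal of the 11 ranged from 6.78 to 11.0 in AngII+CsA and from 7.47 to 12.1 in AngII. It was highest in replicate 3, where Ccl2 was lowest. Cd14 alone made up 65.9% to 78.6% of this sum, which is thus mainly a reading of Cd14. The T-cell sum (5 of 8 genes tested, Cd8a on 0 arrays) was 2.95 to 9.47 in AngII+CsA and 3.29 to 11.0 in AngII. Thy1 alone made up 57.3% to 80.2% of it. The mast-cell sum (4 of 6 tested, Cpa3 and Kit on 0 arrays) was 1.03 to 2.08 in AngII+CsA and 1.28 to 2.18 in AngII. The endothelial sum (5 of 9 tested, Cdh5, Pecam1 and Tie1 on 0 arrays) was 0.778 to 1.03 in AngII+CsA and 0.951 to 1.26 in AngII. Both the mast-cell and the endothelial sum were lower in AngII+CsA in 4 of 4 pairs. Of each, 5 of 5 tested probes had a negative difference, against 53.7% of all tested probes. These sums are small, and dim signals were lower as well. Without the filter the median difference of all probes was -0.09, against -0.01 for tested probes. The lowest signal that counted as above background was also lower on the AngII+CsA array of each pair. The part of leukocytes, endothelial cells or dim signals in the differences was not tested.

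Most of these genes lie in 2 groups on chromosome 11 of mm7. The first group runs over 139.7 kb and holds Ccl2, Ccl7, Ccl11, Ccl12, Ccl8 and Ccl1 in that order, with the Ccl7 probes starting 9794 bases past the end of the Ccl2 probe. Past Ccl7 fewer arrays detected the probes: Ccl11 and Ccl1 were above background on 0 arrays, Ccl12 on 2 and Ccl8 on 3. The second group lies 1.34 Mb further on, spans 138.8 kb, and holds Ccl5, Ccl9, Ccl6, Ccl3 and Ccl4. There Ccl5 was above background on 8 arrays, Ccl4 on 5 and Ccl9 on 3, while Ccl6 and Ccl3 were on 0. The Ccl8 probe is at chr11:82198181-82198240 and that of Ccl11 at chr11:82144145-82144204 on the plus strand, and Ccl5 (A_52_P638459) is at chr11:83595699-83595758 and Ccl9 at chr11:83644626-83644685 on the minus strand. Away from chromosome 11 lie Ccl17 at chr8:93400914-93400973, the Ccl25 probe A_51_P161265 at chr8:4325884-4325943 and Ccl27 at chr4:41908195-41908254. The levels of different probes cannot be set against each other, so these are counts of detection only.

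**Figure D5:**
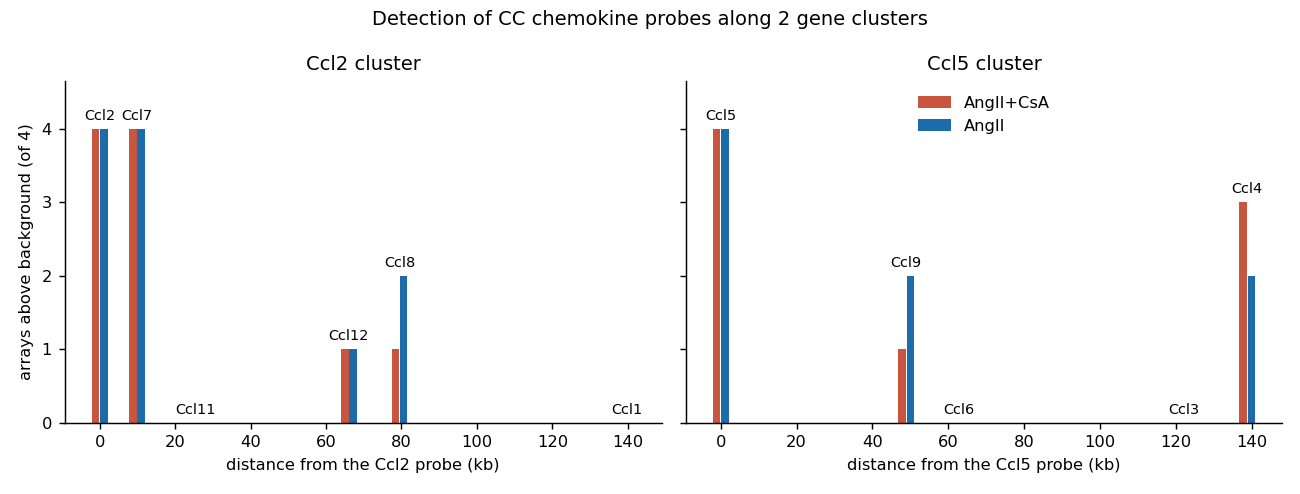
Number of arrays (of 4 per group) on which the probe above background most often for each gene was detected, AngII+CsA in red left of AngII in blue, against the distance in kb from the Ccl2 probe (left panel) and from the Ccl5 probe (right panel). In the left panel only Ccl2 and Ccl7 reach 4 of 4 in both groups, and in the right panel only Ccl5 does.

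Across the 8 arrays, several chemokine probes followed each other through the replicate numbers that the arrays of a pair share, and these correlations are descriptions. Ccl2 had a Pearson r of 0.86 with Ccl20, 0.83 with Ccl8, 0.82 with Ccl5 on A_52_P638459 and 0.59 with Ccl7 on A_52_P208763. The Ccl7 probe A_51_P436652 had r = 0.97 (Spearman rho 0.83) with Ccl8 and 0.74 with the other Ccl7 probe, and replicate 1 was the highest number for all 3. The longest run of bases shared by any pair of the 14 probes was 9. Whether a probe also binds the transcript of another gene was not tested. Ccl7 on A_52_P208763 had only r = 0.36 with Ccl5 on A_52_P638459 and 0.11 with Ccl9. Ccl27 had r = -0.64 with Ccl2 but -0.01 with Ccl7 on A_52_P208763. Ccl17 had r = -0.21 with Ccl2, -0.52 with Ccl7 on A_52_P208763 and 0.14 with Ccl9. Of all other tested genes with a current symbol, Adss, Psmd10, Trf, Galnt5 and Plod2 were most like Ccl2, at 0.96 to 0.98 over the 8 arrays. Those most like Ccl7 on A_52_P208763 were Sh3kbp1, Zfp35, Aftph, Pitpnc1 and Nr4a2, at 0.96 to 0.98. With the mean of each number taken out, which leaves 4 pair differences, Btg1, Stat3, Slc38a1, Anln and E4f1 were most like Ccl2, and Pde5a, Nipal4, Nup188, Gnat1 and Cd164l2 most like Ccl7, all at 0.99 to 1.00.

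The other genes of the chemokine system gave 0 calls in either fit by limma. Of the CC chemokines outside the 10, 3 of 10 genes on the array were tested. Ccl19 guides CCR7-bearing cells to lymph nodes. Its probe A_51_P458262 averaged -0.61 ± 0.14 in AngII+CsA and -0.11 ± 0.34 in AngII (SD, n = 4 each). This probe was lower in 4 of 4 pairs with a difference of -0.50, an unadjusted blocked p of 0.0068 and an adjusted p of 0.932 by limma. The second Ccl19 probe, A_51_P458258, was above background on 2 arrays of AngII+CsA and 0 of AngII, and was not tested. It differed by 0.04 and was higher in 3 of 4 pairs. The differences were 0.17 for Ccl4 and -0.13 for Ccl28. Of 17 receptor genes 7 were tested, and Ccr1 and Ccr2, which bind Ccl7 among other ligands, were above background on 0 arrays. Ccr3, a further receptor of Ccl7, was named after its value was seen. Its probe A_52_P661044 was above background on 4 arrays of each group and differed by 0.16. The other Ccr3 probe, A_51_P412768, was above background on 0 arrays. The decoy-like receptor Ccrl2 differed by -0.42, and the scavenging receptor Ackr2 by -0.25. Ccrl2 was lower in all pairs, with an unadjusted blocked p of 0.0125 and an adjusted p of 0.932 by limma. Ccr6, the receptor of Ccl20, was chosen here after its value was seen: it averaged -1.62 ± 0.32 in AngII+CsA and -1.45 ± 0.31 in AngII (SD, n = 4 each).

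Genes for the signals that induce chemokines had differences on both sides of 0, with more positive than negative ones. Among 34 probes of 26 NF-kB, AP-1 and related genes, 8 had a negative and 26 a positive difference, where 53.7% of all tested probes were negative. Their median was 0.05, against -0.01 for all tested probes, and 0 passed at an unadjusted p under 0.05 by limma with the block. The smallest blocked p-values there were 0.067 for Fosl1, an AP-1 subunit with a difference of 0.47, and 0.094 for Nfkb2, an NF-kB subunit with a difference of 0.21. Among 18 probes of 13 cytokine and pattern receptor genes 7 had a negative and 11 a positive difference, with a median of 0.02. At an unadjusted p under 0.05 by limma with the block 2 were lower and 1 higher, where 3.42% of all tested probes were lower. Tlr2, a receptor for bacterial lipoproteins, differed by 0.42 and was higher in all pairs, and Ifngr2, an interferon-gamma receptor chain, differed by -0.43 and was lower in all pairs. The cytokine Il6, named after its value was seen, differed by -0.58 and was lower in all pairs too. The unadjusted blocked p was 0.0057 for Tlr2, 0.027 for Ifngr2 and 0.040 for Il6, and the adjusted p 0.932 for each by limma. Among 17 probes of 11 genes for proteases and heparan sulfate carriers, which trim or display chemokines, the median was -0.03. Syndecan Sdc4 differed by -0.35 and Ndst1, a heparan sulfate sulfotransferase, by -0.19 on the probe with the smaller p.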

How the data were processed

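Each array file deposited by the authors gives per-spot intensity values on a linear scale and flags, which are other values of 0 or 1 for background, saturation and outliers. Per the file headers, the arrays have Agilent design 014868 and Feature Extraction 9.5.3.1 (protocol GE1-v5_95_Feb07) produced the signals. Per the labels' protocols, 600 ng of total RNA was amplified and labelled with Cy3. A further table deposited by the authors holds log2 values. It served as an alternative, and the constant that sets its scale stays unknown.

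Log2 processed signal minus each array's 75th percentile was used after control and outlier spots were left out and the spots of a probe averaged. Of 41174 probes, 17101 were above background on 0 arrays. limma 3.58.1 (R 4.3.3) gave two-sided tests, adjusted by Benjamini-Hochberg over 19529 probes at 0.05. The groups-alone fit had 6 residual degrees of freedom and the blocked fit 3. Both were run on simulated data that had the replicate effects and residual spread of the blocked fit. The simulated noise was independent between probes and arrays, so dependence between them was not covered. Arrays of the same number deviated together from their group means (r of 0.70 to 0.86, against -0.76 to 0.25 for other pairs across groups), and the numbers were treated as pairs. The labels call the cultures independent. Nothing given says whether a number marks the same animals, so p-values apply to these cultures. On the groups alone they rest on the spread between the cultures of a group. With the block they rest on the scatter of the differences within replicate numbers.

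Every probe of the 10 genes is named. From each other list come genes that passed, or failing any, 2 by smallest blocked p, and the genes most like Ccl2 and Ccl7 are the 5 with the highest r. The genes and lists were chosen with earlier results of these data known. Alternatives covered the block, background correction, scaling, the filter, outlier spots, probe choice, leaving out arrays, the authors' table and the model of the variance.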

Additional observations from a re-analysis of the deposited data

How the results depend on the processing

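Of the chemokine probes, 0 were called under any alternative. The differences of Ccl2 (-0.89 to -0.18), Ccl7 on A_52_P208763 (-0.92 to -0.29) and on A_51_P436652 (-1.39 to -0.05) and Ccl20 (-0.79 to -0.12) stayed below 0 in every setting run, the values nearest 0 arising without AngII replicate 1 (without AngII+CsA replicate 4 for A_52_P208763). With whole pairs left out under the block, Ccl2 lay between -0.65 (without replicate 3) and -0.42, Ccl7 on A_52_P208763 between -0.68 and -0.49, on A_51_P436652 between -0.86 and -0.45, and Ccl20 between -0.67 and -0.35. The 3 probes near 0 changed sign, and the cause was not tested. The Ccl5 difference (A_52_P638459) was 0.0048 under median scaling and 0.0048 under median scaling with the replicate block, and ranged from -0.28 to 0.15 with arrays left out, being 0.0223 without replicate 1 under the block. The Ccl17 difference ranged from -0.33 to 0.08 with arrays left out, being 0.0801 without replicate 2 under the block and 0.0528 without AngII replicate 2. The Ccl27 difference was -0.038 under normexp background correction, -0.038 under normexp with the replicate block, and -0.20 to 0.17 with arrays left out, being -0.10 without replicate 3 under the block. Median scaling moved the median of all tested probes by 0.098.

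Over all probes, 0 were called on the groups alone. The replicate block called 2, Rcan1 and Serpinb1c, and the random block 8. Within the blocked fit the count was 3 with normexp, 2 with quantile normalization, 2 with median scaling, 4 with probes above background on all arrays, 2 with outlier spots kept, 4 with 1 probe per gene, 6 with trend and robust variance and 2 with the authors' table. It was 0 without a filter and 0 without any 1 pair. The replicate numbers differed for 13061 probes, for 22022 without a filter, where more probes were tested, and for 8276 (without replicate 4) to 12014 (without replicate 1) with a number left out. Without a filter they differed for 12 of the 14 chemokine probes, where 22022 of the 41174 probes on the arrays did. With the filter it was 5 of 7, against 66.9% of all tested probes. The 7 chemokine probes that the filter leaves out were above background on at most 3 arrays.

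The depth limit is the background: 7 of the 14 probes, with Ccl8, Ccl9, Ccl11 and Ccl25 among their genes, were above it on at most 3 of the 8 arrays and were not tested. With 4 cultures a group, the fit on the groups alone carries the spread between cultures in its error.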
